A study of Macaca fascicularis with 21 samples.

Results

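The gastrulating cells of cultured cynomolgus monkey (Macaca fascicularis) embryos were the 83 cells of 1453 that the authors' deposited annotation calls E-Gast (33 cells), L-Gast1 (15 cells) or L-Gast2 (35 cells). No further filter was applied to them. The series holds single cells from 21 embryos, which were grown from zona-free blastocysts, 1 to a well, on Matrigel in vitro, with no other treatment. The labels place 2, 5, 3, 4, 4 and 3 embryos at days 11, 12, 13, 14, 16 and 17. Of the sample labels, 16 give a developmental stage and 5 a culture stage (day 12 replicate 1, day 13 replicates 1 and 2, and day 17 replicates 1 and 2). The sample labels leave it unsaid if these run from 1 common day. The deposited cell annotation also has a stage column with the day of the cell as d.p.f. (days post fertilization), which was not used here. Before the cells were picked by hand the implantation site was cut out and extra-embryonic cells were taken off, so shares below describe picked cells and not whole embryos.

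The primitive streak is the site where epiblast cells leave the epithelium and form mesoderm and endoderm. NODAL, WNT and BMP signals start it, and the transcription factors T (brachyury, TBXT), EOMES and MIXL1 mark its cells. MESP1 comes on as cells become nascent mesoderm, and HAND1, GATA6, FOXF1 and MEIS2 mark mesoderm that has moved on. In primates part of the extra-embryonic mesenchyme and the amnion express some of the same genes.

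E-Gast and the L-Gast labels hardly met in time. All 33 E-Gast cells came from days 11 to 14, while 47 of the 50 L-Gast cells came from day 16. Label and day therefore cannot be told apart between E-Gast and L-Gast. Gastrulating cells were found in 16 of 21 embryos. Their share of the picked cells was 1.16% and 1.47% in the 2 embryos of day 11. It was 0% to 5.88% (median 3.66%) on day 12 and 3.17% to 5.41% (median 3.23%) on day 13. On day 14 it was 11.8% and 12.0% in replicates 2 and 4 and 0% in replicates 1 and 3, which held 2 and 1 epiblast cells. On day 16 all 4 embryos had gastrulating cells, at 9.30% to 18.8% (median 14.0%). On day 17, 1 cell of 230 carried a gastrulating label, so the highest share was 1.56%. The picking of the disc can set these shares, and its part in them was not tested.

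**Figure D1:**
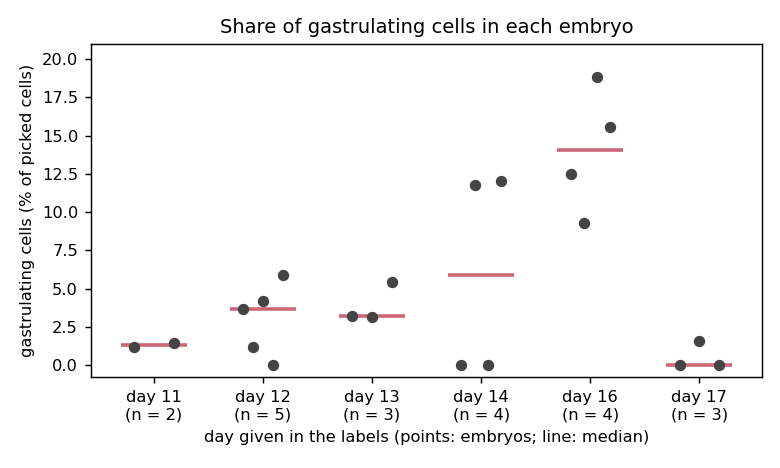
Percentage of picked cells with a gastrulating label (y axis) in each of the 21 embryos (points) by the day in the labels (x axis), with the median of each day as a line. The day 16 embryos lie between 9.30% and 18.8%, and the day 17 embryos at 0% to 1.56%.

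Counts per cell had a median of 32437 in E-Gast, 73193 in L-Gast1 and 70609 in L-Gast2, against 61090 over all 1453 cells. Because cells of 1 embryo are not replicates, counts were summed per embryo and label where an embryo had at least 3 such cells. E-Gast then had 3 embryos (day 12 replicate 1 with 3 cells, day 14 replicates 2 and 4 with 10 cells each). L-Gast1 and L-Gast2 each had the 4 embryos of day 16, with 4, 3, 4 and 3 L-Gast1 cells and 7, 5, 12 and 9 L-Gast2 cells. Together these 7 embryos held 70 of the 83 cells, and their gastrulating sums ran from 132260 to 2455912 counts. Levels below are counts scaled to a common library size (CPM) of these sums, scaled together, unless a fitted value is named. Counts were taken at the transcripts' ends, so CPM compares 1 gene across samples and not genes with each other. The annotation was made from the same counts, so differences between labels are described with a fitted log2 difference, its standard error (SE) and the number of embryos on each side, and carry no test.

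The marker genes bore out the annotation in part, and differently for each label. T reached 78.2, 78.1 and 50.6 CPM in the 3 E-Gast embryos. It reached 0, 38.1, 77.8 and 39.8 CPM in L-Gast1 and 1.98, 0, 0.578 and 113 CPM in L-Gast2, so that 3 of 4 L-Gast2 sums lay below 2 CPM. EOMES, the T-box factor needed for mesendoderm, stood at 0, 84.0 and 100.4 CPM in E-Gast, at 30.9, 185, 26.6 and 414 CPM in L-Gast1 and at 67.3, 16.4, 0 and 37.2 CPM in L-Gast2. MIXL1, a homeobox factor of the streak, was at 0 in all 3 E-Gast sums, at 12.9, 76.1, 16.4 and 0 CPM in L-Gast1 and at 5.94, 0, 0 and 18.6 CPM in L-Gast2. MESP1, the factor of nascent mesoderm, was at 0 in the E-Gast sums, at 0, 0, 4.10 and 7.97 CPM in L-Gast1 and at 103, 10.9, 0 and 206 CPM in L-Gast2. The ranges of each marker overlapped, or met at 0, between every pair of the 3 labels.

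Among all 12 labels, L-Gast1 had the highest mean of EOMES (164.2 CPM) and of MIXL1 (26.4 CPM), and L-Gast2 the highest mean of MESP1 (80.1 CPM). T was highest in the early germ cells (E-PGC, 118.7 CPM, range 80.3 to 138.0), followed by E-Gast (69.0 CPM), L-Gast1 (38.9 CPM) and L-Gast2 (29.0 CPM). The ranges of T overlapped between L-Gast1 and both other gastrulating labels. For EOMES, visceral and yolk-sac endoderm (VE/YE) came second with 94.7 CPM, between L-Gast1 and E-Gast (61.5 CPM). MESP1 and its neighbour MESP2 are paralogs, and whether reads were split between them was not tested.

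In single cells T was counted in 21 of 33 E-Gast cells (63.6%, exact 95% interval 45.1% to 79.6%), 8 of 15 L-Gast1 cells (53.3%, 26.6% to 78.7%) and 4 of 35 L-Gast2 cells (11.4%, 3.20% to 26.7%). The share in trophectoderm cells, which should lack T, was 4.21% (16 of 380) at a median of 69068 counts per cell. Thinned to 10000 counts per cell, the shares were 51.7% (15 of 29 cells) in E-Gast, 3 of 15 cells in L-Gast1, 6.06% in L-Gast2 and 1.42% in trophectoderm. These intervals cover counting error only. T and EOMES were counted together in 12 E-Gast, 6 L-Gast1 and 2 L-Gast2 cells. At least 1 of the 4 markers was counted in 24 of 33 E-Gast cells (72.7%), 11 of 15 L-Gast1 cells (73.3%) and 11 of 35 L-Gast2 cells (31.4%), against 11.8% of trophectoderm and 7.63% of extra-embryonic mesenchyme (EXMC) cells. The share was 77.8% in E-PGC, 58.4% in VE/YE, 30.3% in early amnion (E-AM) and 27.6% in early epiblast, so L-Gast2 stood near the last 2 of these. The other 24 of 35 L-Gast2 cells had no count of any of the 4 genes.

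Single cells carried much of what L-Gast2 showed of the markers. One L-Gast2 cell of day 16 replicate 4 held 87.0% of the 69 T counts of all L-Gast2 cells. The same cell held 98.3% of the 239 counts of SOX17, a factor of endoderm and primate germ cells, and 85.7% of the 147 counts of FGF17. Another cell of that embryo held 56.1% of the 180 MESP1 counts and 71.4% of the 14 MIXL1 counts.

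**Figure D2:**
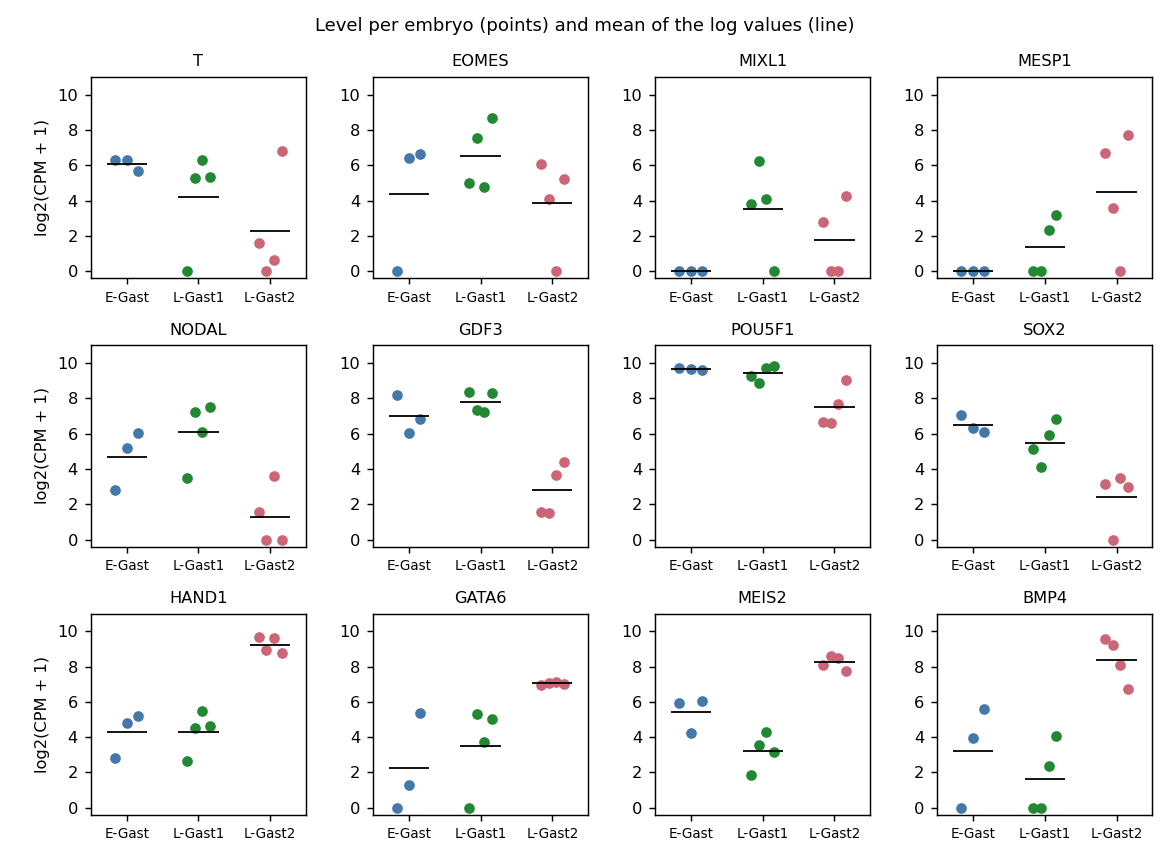
Level of 12 genes as log2(CPM + 1) (y axis) in each embryo (points) for E-Gast (3 embryos), L-Gast1 and L-Gast2 (4 embryos each), with the mean of the log values as a line. HAND1 and MEIS2 separate L-Gast2 from both other labels without overlap, GDF3 is lower in L-Gast2, and the 4 marker genes in the top row overlap between labels.

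To order the labels, a streak score was taken as the mean of log2(CPM + 1) over T, MIXL1, EOMES, NODAL, FGF8, WNT3 and SP5, and a mesoderm score likewise over HAND1, FOXF1, GATA6, SNAI2, TWIST1, PDGFRA, MEIS2 and TBX20. EVX1, a further streak gene, was not named in the table, and SNAI2 was at 0 in every gastrulating sum. The streak score minus the mesoderm score was 1.74, 1.83, 1.54 and 1.66 in the 4 L-Gast1 sums (1.69 ± 0.12, SD, n = 4). It was 0.39, 2.51 and 1.11 in the 3 E-Gast sums (1.34 ± 1.08, SD, n = 3) and −1.28, −3.83, −4.61 and −1.13 in L-Gast2 (−2.71 ± 1.77, SD, n = 4). L-Gast1 and E-Gast overlapped, so the order from streak-like to mesoderm-like was L-Gast1 and E-Gast, not separable, and then L-Gast2, whose 4 embryos all lay below both. Within each day 16 embryo L-Gast1 exceeded L-Gast2 by 3.02, 5.66, 6.15 and 2.79 (mean 4.40 ± 1.75, SD, n = 4).

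The mesoderm genes carried this order more than the streak genes. The mesoderm score of L-Gast1 was lower than that of L-Gast2 by 4.03, 3.23, 3.11 and 2.56 in the 4 embryos. The streak score was lower in L-Gast1 by 1.02 in replicate 1 and higher by 2.43, 3.04 and 0.23 in replicates 2, 3 and 4. WNT3 was at 137 CPM in L-Gast2 of replicate 1 and at 0 in its L-Gast1. For scale, the difference was −4.76 ± 0.91 in EXMC (SD, n = 20 embryos), −2.67 ± 0.95 in the later amnion label L-AM2 (n = 4) and −0.24 ± 0.99 in early epiblast (n = 11). It was 0.21 ± 0.82 in VE/YE (n = 14), −0.055 ± 1.45 in E-AM (n = 5) and −0.0078 ± 3.16 in E-PGC (n = 3). The ranges of VE/YE, E-AM and E-PGC each overlapped those of E-Gast and L-Gast1. A positive difference was therefore not particular to the gastrulating labels. A negative one was not particular to L-Gast2, whose range overlapped that of every label outside the gastrulating ones. The mean mesoderm score was 5.17 in L-Gast2, 5.80 in EXMC, 3.57 in L-AM2 and 2.78 in trophectoderm. The mean streak score was 2.96 in VE/YE, 2.94 in E-PGC and 2.41 in E-AM, against 2.46 in L-Gast2.

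Cell by cell, the mesoderm score exceeded the streak score in 6 of 33 E-Gast cells, 1 of 15 L-Gast1 cells and 32 of 35 L-Gast2 cells. The median mesoderm score of single cells was 0.788 in E-Gast, 0.669 in L-Gast1 and 4.18 in L-Gast2. HAND1 was counted in 12 of 33, 6 of 15 and 34 of 35 cells of the 3 labels. POU5F1, the pluripotency factor OCT4, was counted in all E-Gast and L-Gast1 cells and still in 32 of 35 L-Gast2 cells, 31 of which also had HAND1 counts.

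**Figure D3:**
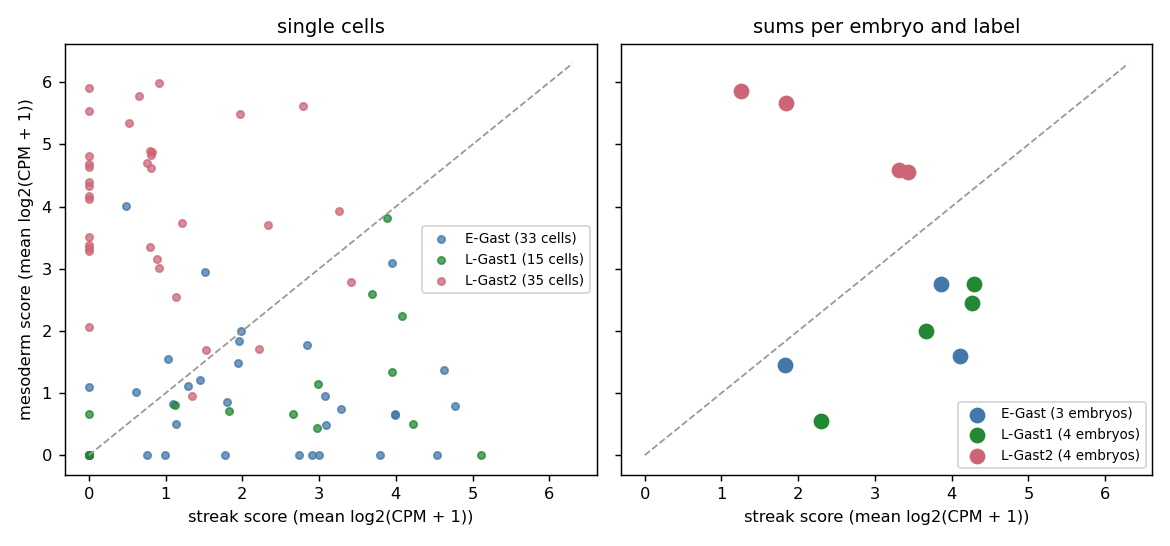
Mesoderm score (y axis) against streak score (x axis), both mean log2(CPM + 1), for 83 single cells (left) and for the 11 sums per embryo and label (right), with the line of equal scores dashed. The L-Gast2 points lie above the line in 32 of 35 cells and in all 4 embryos, and the sums of E-Gast and L-Gast1 lie below it.

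Set against all other cells of the same 7 embryos, the gastrulating cells as 1 group shared few high genes. Of 16617 genes, 25 (0.150%) were higher by a fitted log2 difference of at least 1 and lay above the other cells in all 7 embryos, and 856 (5.15%) were lower by the same rule. The other cells' sums held 4836673 to 10682941 counts, so a gene at 0 in a small gastrulating sum counts as lower there. HLX, a homeobox factor, had the largest fitted difference (4.39 ± 1.01, SE), at 1.68 to 70.4 CPM in gastrulating cells and 0 to 7.79 CPM in the other cells. In that comparison HLX stood above the other cells in each embryo, but all 4 L-Gast1 sums were at 0, and the difference came from E-Gast and L-Gast2. CDX2, a caudal factor of the posterior body and of trophectoderm, followed with 2.58 ± 0.44 (4.14 to 118 CPM against 2.81 to 22.4 CPM). By label it was at 114, 47.1 and 41.6 CPM in E-Gast, at 5.16, 0, 0 and 7.97 CPM in L-Gast1 and at 33.6, 131, 148 and 3.38 CPM in L-Gast2, so L-Gast1 lay below every E-Gast embryo.

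The other genes that were higher in all 7 embryos were not all high in each of the 3 labels. HAS2, which makes the hyaluronan of the matrix that migrating mesoderm moves through, was at 313, 293 and 429 CPM in E-Gast, at 907, 593, 582 and 765 CPM in L-Gast1 and at 1340, 1674, 631 and 1408 CPM in L-Gast2. Its fitted difference from the other cells was 1.82 ± 0.18, and the ranges of 289 to 1559 CPM and 63.9 to 372 CPM overlapped across embryos though not within any. FOXH1, the DNA-binding partner of NODAL-activated SMADs, gave 1.82 ± 0.34 and was at 163, 172 and 109 CPM in E-Gast, 36.1 to 303 CPM in L-Gast1 and 29.5 to 255 CPM in L-Gast2. In that comparison the other cells stood at 18.9 to 46.8 CPM, a range that covers the lowest L-Gast1 and L-Gast2 sums. LEF1, a nuclear effector of WNT, gave 1.64 ± 0.51. It was at 54.2 to 133 CPM in E-Gast and 76.1 to 150 CPM in L-Gast2, but at 2.58, 103, 22.5 and 0 CPM in L-Gast1. TMEM178B (2.58 ± 0.37), the adhesion receptor gene BAI3, ISOC1 and PSD3 were also higher in all 7 embryos, with FAM214B, PTPLA, SOGA2, ERICH2 and LRRIQ1.

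GPR155 had the largest fitted difference among the lower genes (−5.47 ± 1.20). Products of endoderm were also among them. TTR, the thyroid hormone carrier, differed by −4.66 ± 0.42 (0 to 67.6 CPM against 1.16 to 801 CPM) and APOA1, an apolipoprotein, by −3.96 ± 0.35 (0 to 135 CPM against 59.5 to 1863 CPM). GPR155, TTC39C, TMEM154, SCN2A, HSD17B2 and PLEKHG1 had medians of 0 to 1.17 CPM in gastrulating cells. Of the 4 markers, none was higher in every embryo. T was higher in 5 of 7 (2.17 ± 0.92), EOMES in 5 (1.58 ± 0.62), MIXL1 in 4 (1.72 ± 1.07) and MESP1 in 3 (4.31 ± 1.47). The list of 7 streak score genes had a median difference of 1.63, against −0.34 over all genes tested, with no member past the rule. Later mesoderm genes, which the mesenchyme among the other cells also expresses, had a median of −0.61. Of 17 genes of the epithelial to mesenchymal transition 5 were lower, namely FN1, ZEB2, TWIST1, SPARC and TGFBI, all of them mesenchymal genes, and none was higher.

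L-Gast1 and L-Gast2 lay side by side in the same 4 day 16 embryos and differed in opposite directions for pluripotency and mesoderm genes. Of 8815 genes, 487 (5.52%) were higher in L-Gast1 and 881 (9.99%) lower by a log2 difference of at least 1 with all 4 embryos on 1 side. The L-Gast1 sums rest on 3 or 4 cells each, and the labels were drawn from these same counts. Of 11 later mesoderm genes 8 were lower in L-Gast1 and none higher, and of 12 pluripotency genes 8 were higher and none lower. The median differences were −4.40 and 2.57, against −0.14 over all genes. With the 2 mesoderm members at 0 in L-Gast1 (PITX1 and ISL1) set to their bound, the first median was −3.61.

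HAND1, a helix-loop-helix factor of extra-embryonic and lateral mesoderm, was at 5.16, 21.8, 43.0 and 23.9 CPM in L-Gast1 and at 803, 492, 792 and 428 CPM in L-Gast2 (log2 difference −4.81 ± 0.53, SE). The groups were far apart in each embryo. GATA6, a zinc-finger factor of endoderm and mesoderm, was at 0, 38.1, 12.3 and 31.9 CPM against 123, 133, 141 and 130 CPM (−3.08 ± 0.90). MEIS2, a homeobox partner of HOX proteins, was at 2.58, 10.9, 18.4 and 7.97 CPM against 269, 390, 362 and 217 CPM (−4.97 ± 0.69). HAND2, FOXF1, GATA4, TBX20 and PITX1 were lower too. TBX20 was at 0, 70.7, 2.05 and 7.97 CPM in L-Gast1 and at 5.94, 117, 58.4 and 62.6 CPM in L-Gast2, so most of its L-Gast1 level came from replicate 2. PITX1 had no count in the L-Gast1 sums and was lower there by at least 35.3-fold, a bound that takes 3 counts over the summed group.

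Among the pluripotency genes POU5F1 was at 614, 462, 834 and 900 CPM in L-Gast1 and at 98.9, 94.7, 203 and 531 CPM in L-Gast2 (2.00 ± 0.39). SOX2, the factor that epiblast cells lose on entering mesoderm, was at 33.5, 16.3, 59.4 and 112 CPM against 7.91, 0, 10.4 and 6.77 CPM (3.24 ± 1.17). NANOG gave 211, 179, 242 and 7.97 CPM against 1.98, 1.82, 64.8 and 3.38 CPM (4.01 ± 0.96), so replicate 4 was low in both labels. DPPA4, DNMT3B, UTF1, the NODAL-related ligand GDF3 and CDH1 were also higher. UTF1 rested on 25 counts against 1, a ratio of 75.4 with an exact counting interval of 12.3 to 3095.

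Ligands of the TGF-beta family divided the 2 labels. NODAL, the streak inducer, was at 10.3, 147, 67.6 and 183 CPM in L-Gast1 and at 1.98, 0, 11.0 and 0 CPM in L-Gast2 (4.97 ± 1.26). GDF3, which can signal with NODAL, was at 322, 158, 148 and 311 CPM against 1.98, 1.82, 11.6 and 20.3 CPM (4.95 ± 0.75). Of 11 genes of the NODAL list these were the higher ones and GDF1 the lower one. BMP4, which patterns posterior mesoderm, ran the other way with 0, 0, 4.10 and 15.9 CPM against 744, 601, 275 and 103 CPM (−6.53 ± 0.91). BMP2 had 1 count in L-Gast1 and 691 in L-Gast2, a ratio of 229 (exact counting interval 41.0 to 9064). BMP5, the transducer SMAD1 and the pseudoreceptor BAMBI (−2.40) were lower as well, making 5 of 14 BMP genes. Among target genes, ID1 (1.69) and ID3 (1.18) were higher in L-Gast1, against the direction of the ligands. In the plots of log2 by list, ID4 lay on the same side without passing the rule. These were the only 3 of the 14 BMP genes tested with a difference above 0.

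**Figure D4:**
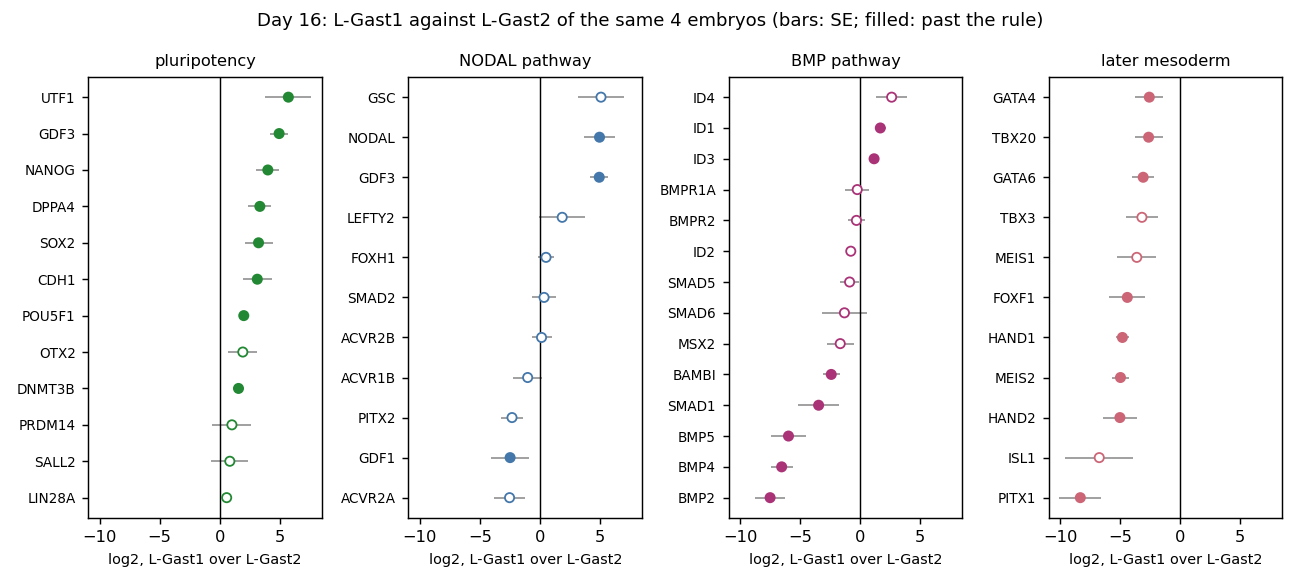
Fitted log2 difference of L-Gast1 over L-Gast2 (x axis, bars 1 SE) for the tested members of 4 gene lists (rows), with filled points where all 4 embryos lay on 1 side and the difference was at least 1. Pluripotency members lie to the right and later mesoderm members to the left, and the fitted values of PITX1 and ISL1, which were at 0 in L-Gast1, give no size.

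Epithelial and mesenchymal genes split in the same way. CDH1 (E-cadherin, 3.13), CLDN6, CRB3 and ESRP1 were higher in L-Gast1. VIM (vimentin, −3.18 ± 0.52), ZEB2, ITGA5 and SPARC (−2.72) were lower, which made 4 and 4 of 13 genes. VIM was at 15.5, 27.2, 162 and 63.7 CPM in L-Gast1 and at 380, 375, 585 and 563 CPM in L-Gast2. CDH2 (N-cadherin) was at 5.16, 81.6, 22.5 and 135 CPM against 71.2, 89.3, 93.7 and 66.0 CPM and overlapped. The fate of the 7 tested streak transcription factors was less clear, since none passed the rule. T was higher in L-Gast1 in 2 of 4 embryos (2.71 ± 1.75) and EOMES in 3 of 4 (3.01 ± 0.97).

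HOX genes of the B cluster were lower in L-Gast1, and WNT genes went both ways. HOXB6 had no count in L-Gast1 and stood at 75.2, 255, 60.1 and 22.0 CPM in L-Gast2, at least 32.6-fold lower in L-Gast1. HOXB2, HOXB3 and HOXB7 followed, 4 of the 5 HOX genes tested, and reads of HOX paralogs may be shared. The WNT ligand WNT5A and the R-spondin receptor LGR5 were lower in L-Gast1, the receptor FZD7 and the decoy SFRP2 higher. In the FGF list the ligand FGF2 and the inhibitor IL17RD were higher in L-Gast1, and the target genes DUSP6 and ETV5 lower.

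By size, the lowest genes in L-Gast1 were FOSL2 (at least 45.9-fold), PITX1, HOXB6, HOXB2 (at least 29.6-fold), ANG (at least 22.7-fold), KEL (at least 19.6-fold), PYGO1 (at least 18.2-fold) and NAALAD2 (at least 18.1-fold), all at 0 in the 4 L-Gast1 sums. The highest were B3GAT2, UTF1, NODAL, GDF3, FAM19A4, SYT14, PIGR and STARD13. B3GAT2 had 51 counts against 3, a ratio of 51.3 (exact counting interval 16.6 to 257). FAM19A4 was at 74.8, 70.7, 121 and 31.9 CPM in L-Gast1 and at 0, 1.82, 6.94 and 1.69 CPM in L-Gast2.

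Markers of EXMC moved with L-Gast2. Their 10 genes summed to 1270 to 3940 CPM in L-Gast2, 90.2 to 677 CPM in L-Gast1, 141 to 432 CPM in E-Gast and 1915 to 27231 CPM in EXMC itself, and 7 of 10 were lower in L-Gast1 than in L-Gast2. HAND1, FOXF1 and TBX20 are among these markers and also among the mesoderm genes above. Set against EXMC of the same 4 embryos, 413 of 12323 genes (3.35%) were higher in L-Gast2 and 1639 (13.3%) lower. T and EOMES did not set L-Gast2 apart from EXMC. T was higher in 1 of 4 embryos and lower in 3 (−0.83 ± 1.54, SE). EOMES was higher in 2 and lower in 2 (0.29 ± 1.36). MESP1 was higher in 3 of 4 and lower in 0 (5.53 ± 1.01). HAND1 was higher by 2.72 ± 0.31 (a mean of 579 against 89.5 CPM), CDX2 by 3.66 ± 0.85, MSX1 by 4.01 ± 1.33, MSX2 by 4.00 ± 1.11, HOXB6 by 4.32 ± 1.01 and BMP4 by 1.13 ± 0.30. The collagen genes COL1A1 (−4.36 ± 1.26) and COL3A1 (−4.71 ± 1.03), FN1 (fibronectin, −3.59 ± 0.57), SPARC (−2.47 ± 0.30) and VIM (−1.73 ± 0.21) were lower, and so were TWIST1, HAND2 and PDGFRA. COL3A1 still reached 986 CPM in L-Gast2 of replicate 2, where the other 3 embryos had 83.1 to 297 CPM. The part of RNA from other cells in the L-Gast2 values was not tested. Amnion markers summed to 206 to 1618 CPM in L-Gast2, 199 to 364 CPM in L-Gast1 and 156 to 353 CPM in E-Gast. In the amnion labels they summed to 392 to 1047 CPM (E-AM), 552 to 1072 CPM (L-AM1) and 1916 to 3224 CPM (L-AM2), and in EXMC to 818 to 6907 CPM. The L-Gast2 range thus overlapped E-AM, L-AM1 and EXMC.

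Against the epiblast cells of the same embryos the 3 labels differed by different genes. In E-Gast (3 embryos, 10530 genes) 301 genes (2.86%) were higher and 885 (8.40%) lower. T had a mean of 79.1 CPM against 9.86 CPM in epiblast (2.85 ± 0.67). LEF1 (97.9 against 6.56 CPM, 4.17 ± 0.70), CDX2 (79.7 against 6.07 CPM, 4.70 ± 0.84), CDX1, HOXD3 (4.77 ± 1.30), WNT5B (1.83 ± 0.53), GDF3 and FOXH1 were higher as well. HAND1 was higher too (24.8 against 4.14 CPM, 3.00 ± 1.03), with GATA4 and MEIS2, 3 of the 5 later mesoderm genes tested out of 16 listed. The day 12 embryo added little to the HAND1 difference. Scaled over all 7 embryos, it had 6.20 CPM in its E-Gast sum of 132260 counts and 5.64 CPM in epiblast. OTX2, an anterior epiblast factor, was at 0 in the E-Gast sums against a mean of 10.6 CPM in epiblast, and PRDM14, FZD7, SFRP1, SFRP2, FGF2, ETV5 and CDH2 were lower. POU5F1, SOX2 and NANOG were not past the rule in either direction.

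In L-Gast1 (4 embryos, 12105 genes) 167 genes (1.38%) were higher than in epiblast and 1495 (12.4%) lower. EOMES had a mean of 158 against 8.95 CPM (3.38 ± 0.77), NODAL 99.6 against 3.86 CPM (4.61 ± 0.93) and GDF3 230 against 61.0 CPM (2.15 ± 0.50). SP5, a direct WNT target, UTF1, FOXH1, ID2 and ID3 (1.96 ± 0.36) were also higher. SOX2 was lower, with 53.2 against 295 CPM (−2.35 ± 0.49), and so was PRDM14 (−3.05 ± 0.84). None of the 7 later mesoderm genes tested passed the rule.

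In L-Gast2 (4 embryos, 13159 genes) 742 genes (5.64%) were higher than in epiblast and 2236 (17.0%) lower. Later mesoderm genes were higher for 10 of 13, led by HAND1 (a mean of 579 against 9.74 CPM, 6.07 ± 0.43), GATA6 (121 against 2.41 CPM, 6.01 ± 0.71) and MEIS2 (286 against 9.64 CPM, 5.11 ± 0.49). BMP genes were higher for 8 of 17, among them BMP4 (406 against 9.50 CPM, 5.09 ± 0.44), ID2, MSX1, MSX2 and BAMBI, and SMAD7 was lower. Pluripotency genes were lower for 10 of 11, with SOX2 at 5.68 against 291 CPM (−5.45 ± 0.55) and POU5F1 at 210 against 883 CPM (−2.41 ± 0.36). Of 17 epithelial to mesenchymal genes CDH2, VIM, FN1, ZEB2, MMP2, ITGA5 and SPARC were higher and CDH1, CRB3 and ESRP1 lower. SOX2 was thus below epiblast in both L-Gast labels. In these comparisons the same epiblast sums served L-Gast1 and L-Gast2, so their differences share a reference.

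E-Gast of 3 embryos and L-Gast of 4 embryos, with L-Gast1 and L-Gast2 summed, differed in genes of the oxygen response and of mesoderm. Of 9248 genes, 395 (4.27%) were higher in E-Gast and 597 (6.46%) lower, by a log2 difference of at least 1 with no overlap of embryos. Of 17 hypoxia genes 10 were lower in E-Gast and none higher, with a median of −2.38 against −0.12 over all genes. SLC2A1, the glucose transporter GLUT1, was at 187, 222 and 338 CPM in E-Gast, at 1727, 968, 1286 and 494 CPM in L-Gast1 and at 882, 2641, 1746 and 866 CPM in L-Gast2. PGK1, a glycolytic enzyme, was at 259, 466 and 645 CPM, at 1343 to 2305 CPM and at 1291 to 2133 CPM in the same order. VEGFA, P4HA1, P4HA2, KDM3A, LDHA, ANKRD37, PFKFB3 and HK2 made up the other lower genes. STC1, a secreted glycoprotein, had no count in the E-Gast sums, was at 101, 43.5, 22.5 and 87.6 CPM in L-Gast1 and at 89.0, 32.8, 220 and 67.7 CPM in L-Gast2, and was lower in E-Gast by at least 71.2-fold. SLC2A1, PGK1 and STC1 were thus high in both L-Gast labels, unlike HAND1. VEGFA was not, at 12.0 to 27.1 CPM in E-Gast, 5.44 to 23.2 CPM in L-Gast1 and 40.6 to 85.1 CPM in L-Gast2.

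Of 10 later mesoderm genes 7 were lower in E-Gast than in L-Gast, but their L-Gast level came from L-Gast2. HAND1, for example, was at 6.02, 26.5 and 36.2 CPM in E-Gast, within the L-Gast1 range. POU5F1 (1.21), SOX2 (2.45 ± 0.71), DPPA4 and DNMT3B were higher in E-Gast, and OTX2 was lower by at least 11.3-fold. By size, PROSER2, NLRP7 (5.46 ± 0.97), SDPR, CDCA7 (4.84 ± 1.20), INPP5D, SLC41A2, TMEM139 and FOXR1 led the higher genes. NLRP7, of a maternal-effect family with similar members, was at 331, 69.2 and 20.8 CPM in E-Gast and at no more than 7.97 CPM in any L-Gast sum. DNMT3L, the cofactor of de novo DNA methylation, was at 96.3, 33.9 and 8.14 CPM and at 0 in all L-Gast sums, higher in E-Gast by at least 41.4-fold. STC1, BHLHE41, BMP5, KEL, FUT11, FOXF1, ALAS2 and OTX2 led the lower ones.

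Trophoblast markers stood beside the E-Gast values. They summed to 692 to 874 CPM in E-Gast, 38.1 to 214 CPM in L-Gast1 and 73.2 to 240 CPM in L-Gast2, against 703 to 3452 CPM in early epiblast and 2983 to 25521 CPM in trophectoderm. CGA, the glycoprotein hormone subunit, was counted in all 33 E-Gast cells, as in all 170 early epiblast cells. At 572, 759 and 718 CPM it formed most of the E-Gast sum. KRT7 was at 18.1, 25.0 and 39.8 CPM. The part of such RNA in the E-Gast differences was not tested.

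The change with day within gastrulating cells was tested over the 7 embryos, which covered day 12 (1 embryo), day 14 (2) and day 16 (4). It is the same change as from E-Gast to L-Gast, so label and day cannot be told apart in it. The day 12 embryo was also the only 1 of the 7 with a culture stage label. Its day and its label type cannot be told apart either. Of 10623 genes, 126 (1.19%) rose and 22 (0.207%) fell at an adjusted p under 0.05 (edgeR quasi-likelihood test, Benjamini-Hochberg), and 1539 had an unadjusted p under 0.05. HAND1 rose by 1.82 ± 0.19 (log2 per day, SE, adjusted p = 5.9e-05). In the fitted scale it stood at 6.69 CPM on day 12, at 26.8 and 33.5 CPM on day 14 and at 356 to 598 CPM on day 16, without overlap between days 14 and 16. By the HAND1 levels of each label given above, that rise sat in L-Gast2, while L-Gast1 stayed near E-Gast. The day 16 sums hold 33 L-Gast2 and 14 L-Gast1 cells. HAND2, FOXF1 and PITX1 also rose, which made 4 of 13 later mesoderm genes, with a list median of 1.21 per day against 0.084 over all genes. HAND2 and PITX1 lost their calls without the day 12 embryo (adjusted p = 0.0589 and 0.0788) and without day 14 replicate 2 (0.110 and 0.109) or 4 (0.0897 and 0.112).

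BMP4 rose by 1.75 ± 0.29 per day (adjusted p = 0.00460), from 0 on day 12 over 14.9 and 44.4 CPM to 87.6 to 495 CPM on day 16. Without the day 12 embryo its adjusted p was 0.0771. By the BMP4 levels of each label given above, the day 16 level sat in L-Gast2, while L-Gast1 stayed low. Of the 17 hypoxia genes 4 rose, namely P4HA1 (1.02 per day, adjusted p = 0.00258), SLC2A1 (0.83, adjusted p = 0.0121), LDHA (2.20, adjusted p = 0.0181) and PGK1 (0.65, adjusted p = 0.00218). PGK1 was at 288 CPM on day 12, at 470 and 597 CPM on day 14 and at 1305 to 1893 CPM on day 16. The calls of HAND1, PGK1, SLC2A1 and STC1 held in all 7 fits that left out 1 embryo. P4HA1 lost its call without the day 12 embryo (adjusted p = 0.0581), and LDHA in 4 of the 7 fits (adjusted p = 0.0784 without the day 12 embryo, 0.102 and 0.0553 without day 14 replicates 2 and 4, and 0.0758 without day 16 replicate 3).

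STC1 (adjusted p = 0.00218), BHLHE41 (0.0120), BMP5 (0.0120), KEL (0.0374), FUT11 (0.00815), FOXF1 (0.0374) and COL13A1 (0.0465) had no count in the sums of days 12 and 14 and were counted in all 4 sums of day 16. STC1 stood at 39.0 to 168 CPM there. Their fitted slopes depend on the prior count and give no size. FUT11 lost its call without day 14 replicate 4 (adjusted p = 0.0548), BHLHE41 without day 14 replicate 2 or 4 (0.0696 and 0.0779), and BMP5 without these (0.0702 and 0.0763) or day 16 replicate 3 (0.0544). KEL, FOXF1 and COL13A1 lost theirs in 6 of 7, 6 of 7 and 5 of 5 such fits, with the highest adjusted p without day 14 replicate 4 (0.149, 0.155 and 0.179). Among falling genes PROSER2 (adjusted p = 2.0e-04) went from 261 CPM on day 12 to 11.9 and 15.1 CPM on day 14 and to 0 to 0.430 CPM on day 16. NLRP7 (adjusted p = 0.000528) went from 368 to 19.3 and 69.9 and to 1.15 to 6.95 CPM. Both calls were lost without the single day 12 embryo, with adjusted p of 0.211 and 0.152, and BCL2 (adjusted p = 0.0120) likewise at 0.646. DNMT3L fell by 2.42 ± 0.47 per day (adjusted p = 0.0132) and TTC39B (adjusted p = 0.0238) from 107 CPM to at most 2.15 CPM. Both calls held in 5 fits without 1 embryo. Neither gene was tested in the fits without the day 12 embryo or day 14 replicate 2, so their dependence on these embryos is not known. C7H15orf61, SDPR and CDCA7 also fell. Their calls were lost in 4 of 5, 4 of 6 and 2 of 7 fits without 1 embryo, at adjusted p of up to 0.0982 (without day 16 replicate 3), 0.288 and 0.480 (both without the day 12 embryo).

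No gastrulating marker passed the test for a change with day. The adjusted p was 0.631 for T, 0.884 for EOMES, 0.168 for MIXL1 and 0.194 for MESP1, and 0.993 for NODAL. T stood at 86.9 CPM on day 12, at 46.9 and 78.8 CPM on day 14 and at 1.15 to 100.1 CPM on day 16. None of the 12 pluripotency genes passed either (POU5F1 adjusted p = 0.128, SOX2 adjusted p = 0.0856).

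Whether the change with day differed between gastrulating and epiblast cells of the same embryos was tested as an interaction with the embryo as a block. The gastrulating sums were E-Gast on days 12 and 14 and L-Gast on day 16, so label and day cannot be told apart here either. The labels were drawn from these same counts, and the p-values take them as given. Of 14459 genes, 32 (0.221%) had a higher slope in gastrulating cells and 5 (0.0346%) a lower one, and 1150 had an unadjusted p under 0.05. PTGR1, an enzyme of prostaglandin breakdown, gave 2.67 ± 0.31 per day (adjusted p = 0.000278), a call that held in all 7 fits without 1 embryo. It was at 0 on day 12, 13.1 and 32.8 CPM on day 14 and 44.0 to 396 CPM on day 16 in gastrulating cells. In epiblast it was at 16.9, at 22.5 and 26.5 and at 1.02 to 13.0 CPM, so the types did not overlap on day 16. FURIN, the protease that activates NODAL and BMP precursors, gave 2.41 ± 0.40 (adjusted p = 0.0131, and 0.0800 without the day 12 embryo). By label PTGR1 was at 677, 465, 126 and 54.1 CPM in L-Gast2 and at 10.3, 59.8, 43.0 and 0 CPM in L-Gast1, and FURIN at 76.3 to 184 CPM and 4.10 to 15.9 CPM.

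BMP4 gave 1.73 ± 0.36 per day (adjusted p = 0.0372), with epiblast at 1.88 CPM on day 12 and at 8.41 to 12.1 CPM on day 16. The call was lost in 5 of 7 fits without 1 embryo, with adjusted p of 0.0944 without the day 12 embryo, 0.283 without day 14 replicate 2 and 0.133, 0.199 and 0.139 without day 16 replicates 1, 2 and 3. SOX2 gave −1.09 ± 0.20 (adjusted p = 0.0249). It was at 136 CPM on day 12, 61.3 and 78.4 CPM on day 14 and 4.38 to 24.7 CPM on day 16 in gastrulating cells, against 165, 102 and 118, and 134 to 683 CPM in epiblast. Without day 16 replicate 2 or 3 its adjusted p was 0.0783 and 0.0779. By the levels of each label given above, SOX2 was lower and BMP4 higher in L-Gast2 than in L-Gast1 in each day 16 embryo. The L-Gast1 range of SOX2 spanned the day 14 values. ZIC2, a zinc-finger factor, gave −1.27 (adjusted p = 0.0355), as it was at 94.0 to 179 CPM in day 16 epiblast and at 26.1 to 58.4 CPM in gastrulating cells. Its call was lost in 6 of 7 fits without 1 embryo, at most at 0.215 without the day 12 embryo. TEK, SLIT3, PLCXD3, HMGA2, TRPV2 and DUSP5 had higher slopes, and IL12RB1 and CD200 lower ones. Without 1 embryo these calls were lost in 6, 5, 4, 3, 5 and 6 of 7 fits, in 2 of 6 for IL12RB1 and in 5 of 7 for CD200, with the highest adjusted p at 0.348 for PLCXD3 without day 16 replicate 1. IL12RB1 was at 648 CPM in 1 day 16 epiblast sum.

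None of the 17 hypoxia genes passed this test of the difference. PGK1 was at 1129 to 1708 CPM in day 16 epiblast and at 1290 to 1879 CPM in gastrulating cells (adjusted p = 0.802). HAND1 missed the threshold at an adjusted p of 0.0853. It stood at 3.01 to 17.9 CPM in epiblast and at 352 to 616 CPM in gastrulating cells of day 16.

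**Figure D5:**
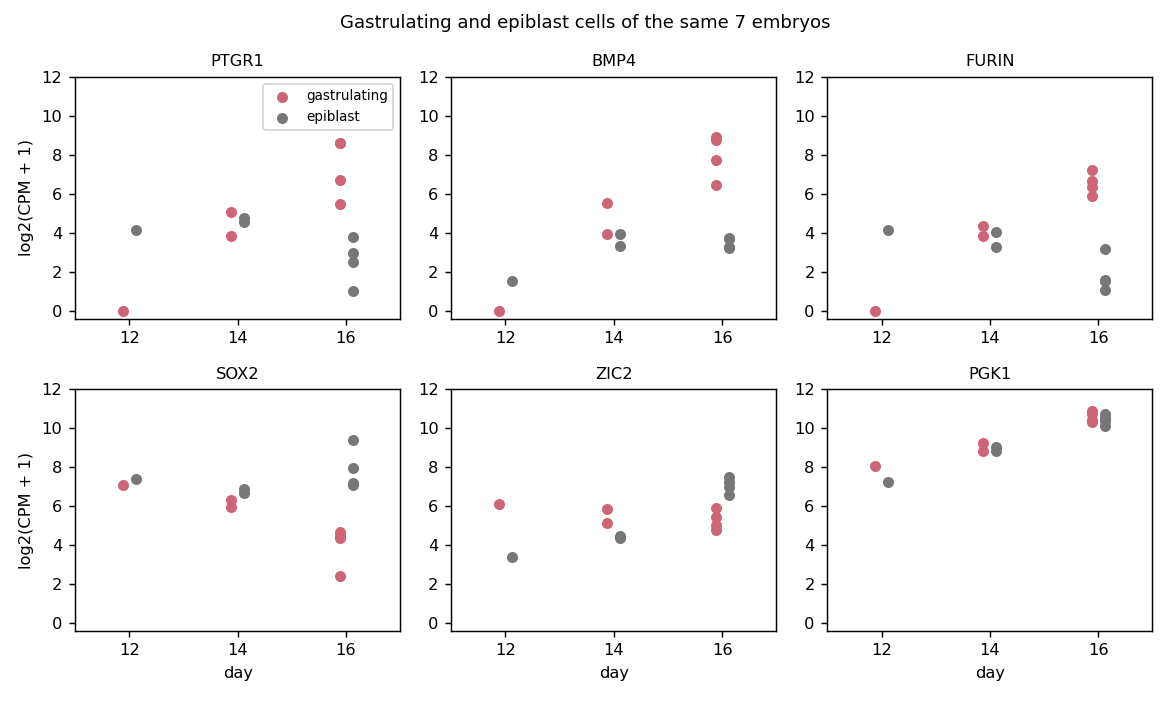
Level of 6 genes as log2(CPM + 1) (y axis) on days 12, 14 and 16 (x axis) in gastrulating (red) and epiblast (grey) sums of the same 7 embryos (points). PTGR1, BMP4 and FURIN part upwards in gastrulating cells on day 16, SOX2 and ZIC2 part downwards, and PGK1 rises in both.

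The 13 cells of the 9 embryos with fewer than 3 gastrulating cells did not enter the fits. Of these, 10 were E-Gast cells, of which 6 had T counts (109 CPM summed), as had 15 of the 23 E-Gast cells in the fits (63.4 CPM). They held less DNMT3B (288 against 735 CPM summed), NANOG (46.9 against 180 CPM) and SOX2 (13.4 against 77.4 CPM), and more HAND1 (134 against 30.7 CPM) and CGA (1880 against 729 CPM). For CGA this held for the summed value only, since the median cell stood at 808 against 816 CPM. A cell of day 13 replicate 1 with 109350 counts stood at 5139 CPM. MESP1, at 0 in the 23 cells, was counted in 2 of the 10. With 1 or 2 cells an embryo these values have no replicate check. Day 13 replicate 3 held 1 cell of each L-Gast label. Its L-Gast2 cell had HAND1 at 1122 CPM and POU5F1 at 46.8 CPM, and its L-Gast1 cell T at 112, NANOG at 310 and POU5F1 at 886 CPM. The only gastrulating cell of day 17, an L-Gast2 cell, had HAND1 at 743 CPM and no POU5F1 count.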

How the data were processed

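The deposited table gives, per the file headers, counts for 30792 features in 1453 cells, with the authors' annotation and embryo of each cell. Values are whole numbers. The submitters' processing notes name STAR. The sources used here do not give the build, the counter or any collapse of molecular identifiers. Of 16890 features named by LOC numbers 3273 were matched to a symbol through RefSeq, and the rest held 6.96% of counts.

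Counts were summed per embryo and label (at least 3 cells). edgeR 4.0.16 (R 4.3.3) filtered genes with filterByExpr, scaled by TMM and fitted quasi-likelihood models, with the embryo as a block where both groups came from 1 embryo. Some items that the naming rule or the lists cover are not reported here. Contrasts of labels are estimates only. Day was tested as a numeric term. Gene names beyond markers and lists follow size among genes past the rule with a mean of at least 20 CPM, 14 higher and 8 lower against all other cells and 8 each way elsewhere. Cells ranged from 3376 to 483669 counts. The doublet status of cells was not examined. Replicate numbers only name embryos. Members and lists were chosen with earlier results of these data known. The fits were tested on simulated data. Alternatives were TMM against DESeq2 1.42.0 size factors, filters, minimum cells, thinning, pseudocounts and leaving out embryos. The comparisons with epiblast and EXMC by label were added after the cell numbers were seen. Of the list genes 8 (CGB3, EVX1, HOXB1, HOXD4, NKX1-2, RIPPLY2, TDGF1 and XAGE2) were not named in the table.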

Additional observations from a re-analysis of the deposited data

Results flagged for a closer look

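In 37 groups of 4 or 5 values (gene levels by label and shares by day) tested for a single value far from the rest, 5 were set apart. Chance sets apart about 1 in 20 groups only where values are normally distributed, which was not tested here. A group with all values but 1 at 0 is always set apart by this rule. T in L-Gast2 was at 113.3 CPM in day 16 replicate 4. In L-Gast1, FOXF1 (8.195 CPM), PDGFRA (12.29 CPM) and WNT3 (10.24 CPM) stood out in day 16 replicate 3. The other sums were at 0, so these flags follow from the rule. TBX20 stood out in L-Gast1 of day 16 replicate 2 at 70.69 CPM.

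The slope with day differed between gastrulating and epiblast cells by an interaction test (edgeR, adjusted p under 0.05) for 12 genes named by size. Label and day cannot be told apart in this test. The difference in log2 per day was 2.69 for TEK, 2.67 for PTGR1, 2.61 for SLIT3, 2.50 for PLCXD3, 2.41 for FURIN, 2.10 for HMGA2, 2.09 for TRPV2 and 2.05 for DUSP5. It was −3.11 for IL12RB1, −1.27 for ZIC2, −1.09 for SOX2 and −0.979 for CD200. Of these calls PTGR1 alone held in every fit that left out 1 embryo.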

How the results depend on the processing

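Fewer embryos loosen a rule that asks for all of them, so counts rose without 1 embryo: against all other cells 39 to 48 genes higher and 1013 to 1202 lower, L-Gast1 against L-Gast2 666 to 764 and 1054 to 1253, E-Gast against L-Gast 506 to 870 and 622 to 1086. Days 11 to 14 alone gave 440 higher and 2701 lower than all other cells, days 16 and 17 alone 287 and 1994. At least 5 cells a sum gave 48 higher, and at least 2 cells (chosen after seeing the data) 9 higher and 452 lower. E-Gast against L-Gast gave 39 and 90 with at least 2 cells, and the difference of TMEM139 turned to −0.048. Without 1 embryo, 44 to 177 genes rose and 8 to 36 fell with day. The lowest counts that rose were 44 without day 12 replicate 1 or day 14 replicate 2, 52 without day 14 replicate 4 and 57 without day 16 replicate 3. Genes that rose numbered 388 with no filter, 44 with at least 5 cells, 192 with at least 2 (chosen after seeing the data), 294 by DESeq2, 44 with developmental stage labels only, 43 with the label type as covariate and 349 without day 16. The settings of at least 5 cells and of developmental stage labels only each leave out day 12 replicate 1 alone. They repeat the fit without that embryo and are no separate checks. The label type covariate sets the same embryo apart. Genes that fell numbered 163 with no filter, 121 by DESeq2 and 275 without day 16. With the replicate block, though numbers pair no embryos, 148 rose and 27 fell, and the calls of C7H15orf61 (adjusted p = 0.214) and CDCA7 (0.110) were lost. Higher day-by-type slopes numbered 130 with no filter, 16 with at least 5 cells and 90 by DESeq2 (8 to 55 without 1 embryo), lower ones 46 with no filter and 43 by DESeq2 (0 to 15). The streak minus mesoderm score of L-Gast1 was 0.965 with pseudocount 10, 2.71 by medians and 2.09 when thinned, and its lead over L-Gast2 6.26 by medians. Without 1 embryo it was 0.749 to 1.81 for E-Gast, 1.65 to 1.74 for L-Gast1, −3.24 to −2.08 for L-Gast2 and 3.82 to 4.94 for the lead. In all of these score settings L-Gast2 stayed lowest. Where no construction is named, the cause was not tested. The L-Gast1 sums rest on 3 or 4 cells each.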

Other observations

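Some genes of the red cell line were counted in a few L-Gast2 cells. KEL, a blood group protein, was at 35.6, 189, 6.36 and 74.4 CPM in the 4 L-Gast2 sums of day 16 and at 0 in all E-Gast and L-Gast1 sums. ALAS2, which starts haem synthesis in red cells, was at 3.96, 523, 72.3 and 27.1 CPM. KEL was counted in 7 and ALAS2 in 11 of 35 cells. One cell of day 16 replicate 2 held 55.9% of the 177 KEL counts and 58.1% of the 430 ALAS2 counts, and all 25 counts of GATA1 lay in 1 cell of replicate 1. The 6 markers of blood or endothelium summed to 50.8 to 251 CPM in L-Gast2, against 114 to 199 CPM in E-Gast, and TAL1 was at 0 in the L-Gast2 sums.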
